A study of Schizosaccharomyces pombe with 16 samples.

Results

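Among the genes that rose when fission yeast ran short of glucose, 4 stood out by the size of the rise: *mug108* (SPAC29A4.12c), SPAC29A4.22, SPAC869.09 and *mug14* (SPBC359.06). They are 4 of the 7019 features in the deposited count table and were chosen by their log2 fold change over wild type cells in glucose, as those with the largest rise in the glucose-starved or glucose-deficient medium, so the values in those media describe the choice and are given without a test. RNA was sequenced from *Schizosaccharomyces pombe* grown for 4 h in rich medium (YES) with 3% glucose at 32 °C, washed, and split for a further 4 h between YES with 3% glucose, 3% sucrose, 3% glycerol plus 0.1% glucose (the glucose-deficient condition) or 3% glycerol (the glucose-starved condition). Wild type cells were sampled in all 4 media. Cells lacking *scr1*, which encodes a zinc finger repressor of glucose-repressed genes, were sampled in glucose and in sucrose as 2 alleles, scr1::ura4+, a disruption in strains that also carry ura4-d18, leu1-32 and ade6-m216, and a deletion, scr1::kanMX6+. By the labels wild type was the h- strain Y44, scr1::ura4+ was the h- strain D59, and the deletion was D163 in replicate 1 and D165 in replicate 2. Each of the 8 groups had 2 libraries, 16 in all. The groups compare a rich medium with glucose-poor ones, and wild type with *scr1*- cells, to ask which genes glucose represses and which of these depend on Scr1.

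In carbon catabolite repression, cells that have glucose shut off genes for the use of other carbon sources. In fission yeast Scr1 is the repressor, and once glucose is gone it leaves the nucleus while Rst2, an activator with a similar DNA-binding domain, is freed from inhibition by the cyclic AMP pathway. Shortage of glucose also induces stress genes and, in cells able to mate, genes of sexual development. The mug genes (meiotically upregulated genes) took their name from a screen of genes induced in meiosis. Of the 4 genes here, *mug14* encodes a protein related to adducin and annotated by RefSeq in actin cytoskeleton organization, SPAC869.09 encodes a protein of the Con-6 family, named after a conidiation gene of *Neurospora*, and the products of *mug108* and SPAC29A4.22 have no assigned function in that annotation.

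The 16 libraries held between 14305848 and 18607823 counts, and the floor of 3 counts used here lay between 0.145 and 0.263 CPM (the count scaled to a library of 1000000 counts, with TMM). They came in 3 batches: batch A, with 5 libraries, was unstranded and counted a read on the features of both strands, while batches B (5 libraries) and C (6 libraries) were stranded. Batch C held all 4 *scr1* deletion libraries and, of wild type, only glucose-deficient and glucose-starved libraries, and the batch term passed an adjusted p of 0.05 for 3693 of 6691 tested features. The *scr1* feature, which extends beyond the coding sequence, was not used to check the mutant labels. It had 26.9 ± 8.71 CPM (SD, n = 2) in wild type cells in glucose and 124 ± 1.20 CPM in scr1::ura4+ cells and 95.7 ± 8.74 CPM in the deletion (SD, n = 2 each). Which part of the feature these reads cover was not tested. For some libraries of batch B the study's own strain list gives h+ strains (Y46 and D60) where the labels give Y44 and D59, so libraries are named here by genotype.

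The genes lie at 3 places. In the coordinates of the count table (ASM294v2), *mug108* spans chrI:5124554-5125643 on the forward strand, 1090 bases in 1 exon, and SPAC29A4.22 spans chrI:5124392-5124613 on the same strand, 222 bases that overlap the start of *mug108* by 60 bases. Both lie inside *rga3* (SPAC29A4.11), which runs across them on the reverse strand. In RefSeq (ASM294v3) the *rga3* coding sequence starts and ends at 5128838 and 5125929, so the pair lies beyond the 3′ end of that coding sequence. SPAC869.09 spans chrI:5496844-5497448 on the reverse strand, 605 bases, and overlaps the non-coding SPNCRNA.1093 on the opposite strand by 507 bases. *mug14* spans chrII:128660-129742 on the forward strand, 1083 bases, and overlaps SPNCRNA.1314 on its own strand by 67 bases. In RefSeq *mug108* encodes 150 residues, SPAC29A4.22 encodes 73, SPAC869.09 encodes 116 and *mug14* encodes 257. The authors counted a read on every feature that it overlapped, so counts in these overlaps are shared.

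**Figure D1:**
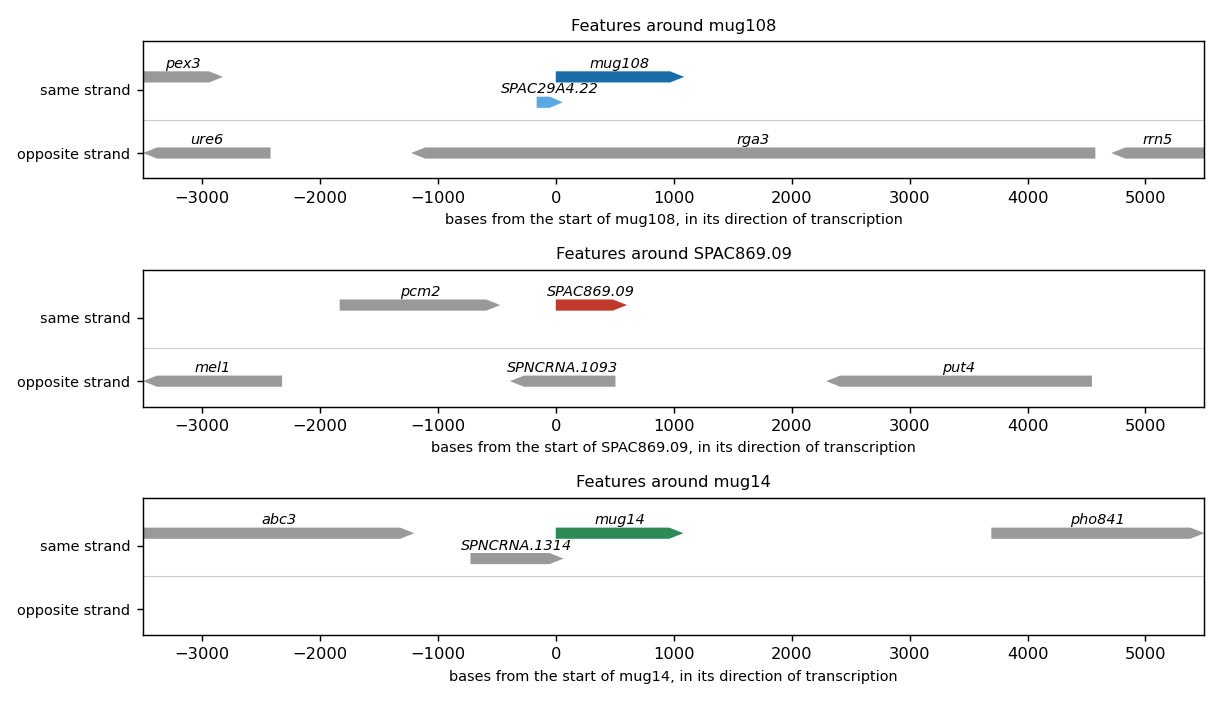
Map of the features around *mug108* and SPAC29A4.22, SPAC869.09 and *mug14*, drawn to scale in bases from the start of the gene in its direction of transcription, with arrows for direction and separate lanes for each strand. SPAC29A4.22 overlaps the start of *mug108* by 60 bases, and both lie opposite *rga3*.

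The promoter windows of *mug14* and SPAC869.09 are shown as those in which the words searched for were found most often. Each window holds 250 bases before and 50 after the RefSeq gene start (ASM294v3, with the strand of the gene), and capitals mark the words searched for on both strands: the Scr1 site (CCGGAG or CCGGGG or CTGGAG or CTGGGG or GCGGAG or GCGGGG or GTGGAG or GTGGGG), the Rst2 site CCCCTC, the CRE TGACGT, the HAP site CCAAT and the TR box TTCTTTGTT of Ste11.
mug14, chrII:128360-128659, forward strand: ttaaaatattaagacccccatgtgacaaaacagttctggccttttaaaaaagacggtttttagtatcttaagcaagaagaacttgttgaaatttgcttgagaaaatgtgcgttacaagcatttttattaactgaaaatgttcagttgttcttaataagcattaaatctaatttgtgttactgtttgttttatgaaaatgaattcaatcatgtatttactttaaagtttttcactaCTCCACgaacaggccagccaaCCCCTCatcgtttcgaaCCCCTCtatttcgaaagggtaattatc
SPAC869.09, chrI:5497342-5497641, reverse strand: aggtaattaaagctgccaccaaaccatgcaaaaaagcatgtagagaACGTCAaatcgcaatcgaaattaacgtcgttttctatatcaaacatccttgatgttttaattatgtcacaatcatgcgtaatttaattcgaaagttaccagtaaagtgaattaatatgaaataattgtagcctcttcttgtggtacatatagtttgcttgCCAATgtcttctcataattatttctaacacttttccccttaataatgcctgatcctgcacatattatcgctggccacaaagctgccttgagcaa
The *mug14* window held CCCCTC at 2 places, starting 6 and 23 bases after the RefSeq gene start, and GTGGAG once on the other strand, 15 bases before it. That RefSeq start is 128610, while in the count table *mug14* starts at 128660, downstream of all these words. Among 5112 windows of the same length, 2.11% held CCCCTC, 0.0978% held it at 2 or more places, 18.9% held 1 of the Scr1 words, and 0.646% held both kinds. The SPAC869.09 window held TGACGT once on the other strand, 204 bases before the start (5.91% of windows), and CCAAT once, 44 bases before it (42.2%). This RefSeq start, 5497391, is also that of the coding sequence. In the count table the gene starts further upstream, at 5497448. The *mug108* window had CCAAT once, 70 bases before the start, and no other word, and the SPAC29A4.22 window, which shares 176 bases with it, had none. TTCTTTGTT was in 2.0% of all windows and in none of the 4. A match describes letters in the window and not a site.

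*mug108* was nearly silent in rich medium and among the most abundant transcripts in starved cells. The wild type libraries stood at 1.84 and 2.12 CPM with glucose (38 and 37 counts), 2.29 and 1.41 CPM with sucrose (46 and 23 counts), 59.5 and 46.7 CPM when glucose-deficient and 4186 and 5279 CPM when glucose-starved (62466 and 60230 counts). Those of scr1::ura4+ stood at 50.3 and 19.1 CPM with glucose and 58.5 and 16.9 CPM with sucrose. Those of the *scr1* deletion stood at 27.1 and 25.3 CPM with glucose and 27.2 and 32.8 CPM with sucrose. Every library of *scr1*- cells lay above all 4 wild type libraries in glucose and sucrose, within or below the range of the glucose-deficient libraries, and far below the starved ones. Ordered by mean, wild type sucrose and glucose came first and overlapped, then the deletion in glucose and in sucrose, whose libraries did not overlap although their means differed only 1.15-fold, then scr1::ura4+ in glucose and in sucrose and the glucose-deficient condition, each overlapping the group below it, and last the glucose-starved condition, 89.2-fold above the glucose-deficient mean. Per kilobase, *mug108* ranked 5029 and 4900 of 5134 tested protein-coding genes in the glucose libraries and 28 and 26 in the starved ones. In whole cultures a change in RNA per cell cannot be told apart from a change in how many cells express a gene, and CPM is relative to all RNA counted.

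**Figure D2:**
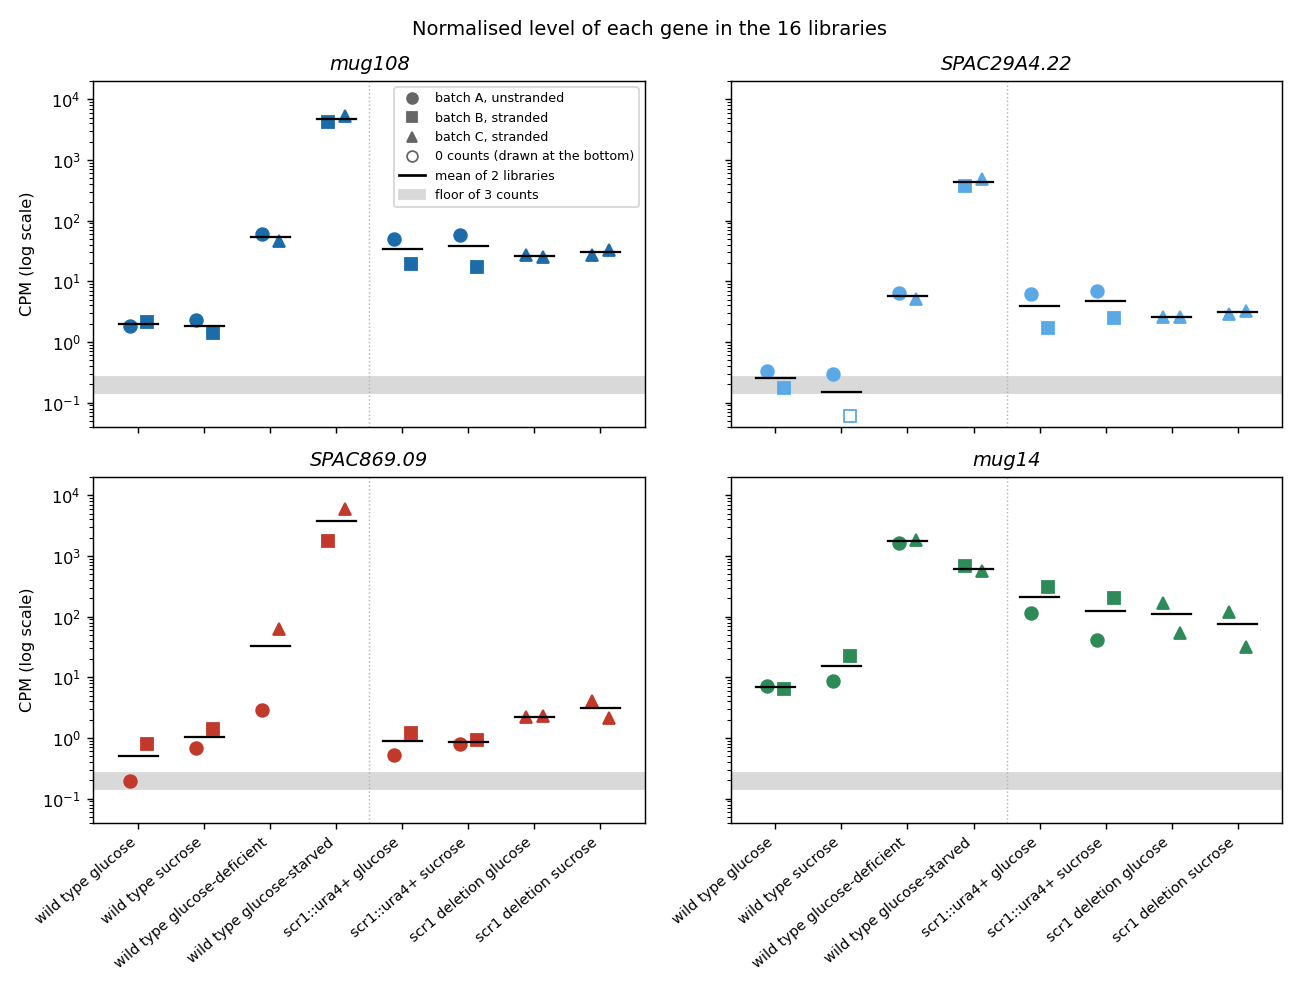
CPM of *mug108*, SPAC29A4.22, SPAC869.09 and *mug14* (log axis) in the 16 libraries by group, with the symbol giving the batch, a line for the mean of 2 libraries, a grey band for the floor of 3 counts and an open symbol at the bottom for a library with 0 counts. The first 3 genes peak in the glucose-starved condition and *mug14* in the glucose-deficient condition, and SPAC869.09 in *scr1*- cells stays at 4.00 CPM or less.

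SPAC29A4.22 followed the same pattern near the limit of detection. Wild type libraries held 7 and 3 counts with glucose and 6 and 0 with sucrose (0.338, 0.172, 0.299 and 0 CPM), close to the floor, and the 0 allows up to 3 counts by counting error alone. They reached 6.40 and 5.10 CPM when glucose-deficient and 371 and 480 CPM when glucose-starved (5534 and 5479 counts). Loss of *scr1* went with 6.24 and 1.73 CPM (scr1::ura4+) and 2.62 and 2.57 CPM (deletion) on glucose, and with 6.96, 2.53, 2.94 and 3.20 CPM on sucrose. All 8 libraries of *scr1*- cells were above all 4 wild type libraries in glucose and sucrose. Because part of it overlaps *mug108*, its share of the counts on both genes was compared between libraries: in the starved libraries it was 8.14% (exact 95% interval 7.93 to 8.35) and 8.34% (8.13 to 8.55), and in the other libraries it was between 9.71% and 15.6% in batch A, 0% and 13% in batch B and 8.83% and 9.85% in batch C. The intervals cover counting error only. Per kilobase, SPAC29A4.22 had 0.435 and 0.447 times the level of *mug108* in the starved libraries. How many of its reads start in *mug108* was not tested.

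Antisense to the pair, *rga3* also differed between the conditions. Its wild type levels were 8.45 and 4.30 CPM with glucose, 7.91 and 4.61 CPM with sucrose, 81.2 and 27.5 CPM when glucose-deficient and 67.4 and 88.1 CPM when glucose-starved. In batch A, where reads of either strand count on both genes, *mug108* had 0.217 to 0.772 times the counts of *rga3*. There *rga3* and *mug108* had 175 and 38 counts in wild type glucose and 1106 and 854 in scr1::ura4+ glucose. In sucrose they had 159 and 46 counts in wild type and 1434 and 1084 in scr1::ura4+. How many of these *rga3* counts are *mug108* reads was not tested. In the stranded batches *mug108* had 0.307 to 62.2 times the counts of *rga3*, with the top value in starved replicate 1. In *scr1*- cells, the log2 level of *rga3* rose by 2.37 in sucrose (SE 0.41, edgeR adjusted p = 0.0086) and by 2.11 in glucose (SE 0.40, edgeR adjusted p = 0.014). In the stranded libraries alone these values were 1.45 (edgeR adjusted p = 0.051) and 1.27 (edgeR adjusted p = 0.061). The *rga3* call in sucrose was lost without wild type sucrose replicate 1 (1.67, edgeR adjusted p = 0.16), and that in glucose without wild type glucose replicate 1 (1.52, edgeR adjusted p = 0.30) or without scr1::ura4+ glucose replicate 1 (1.80, edgeR adjusted p = 0.053).

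Of the 4 genes, SPAC869.09 had the widest gap between replicates in the glucose-poor media. Wild type libraries held 4 and 14 counts with glucose and 14 and 23 with sucrose (0.193, 0.803, 0.697 and 1.41 CPM). Of the glucose-deficient libraries, replicate 1, from batch A, had 2.85 CPM (53 counts) and replicate 2, from batch C, 62.5 CPM (894 counts), a 21.9-fold gap. Among the 6691 tested features this was the largest excess of replicate 2 over replicate 1, but rank 332 by the size of the gap in either direction. The glucose-starved libraries, from batches B and C, had 1792 and 5901 CPM (26745 and 67337 counts), 3.29-fold apart. All libraries of these media lay above all others except glucose-deficient replicate 1, which fell among those of the deletion. Libraries of scr1::ura4+ had 0.530 and 1.22 CPM with glucose and 0.810 and 0.912 CPM with sucrose, and those of the deletion 2.23 and 2.29 CPM with glucose and 4.00 and 2.15 CPM with sucrose. The disruption libraries overlapped wild type, and the deletion libraries, all in batch C, lay above wild type, 4.54-fold by mean in glucose and 2.92-fold in sucrose, with no wild type library of that batch to set beside them. The summed level of the 10 stress response genes on a fixed list was 3658 CPM in glucose-deficient replicate 1 and 11773 CPM in replicate 2. It was 62573 and 79136 CPM in the starved libraries, against 2385 and 3712 CPM in the glucose libraries. A large part of the sum was *hsp9*, with 1463 and 5152 CPM in deficiency and 25060 and 55661 CPM in starvation (lowest and highest library). In deficiency 2 of the 10 genes were called higher and 1 lower, beside 259 and 248 of all 6691 features. The part of these genes in the gap was not tested. Per kilobase, SPAC869.09 ranked 5116 and 4952 of 5134 protein-coding genes in glucose and 41 and 7 in the starved libraries.

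In the unstranded libraries SPAC869.09 cannot be told apart from its antisense partner: SPNCRNA.1093 had 4, 17, 56, 9 and 15 counts where SPAC869.09 had 4, 14, 53, 9 and 15. In the starved, stranded libraries SPNCRNA.1093 had 96 and 85 counts, 0.358% and 0.126% of the counts on both features. The stranded libraries of *scr1*- cells held between 5 and 31 counts on it, beside 13 to 60 on SPAC869.09.

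*mug14* peaked not in starvation but in the glucose-deficient condition. Its wild type levels were 7.20 and 6.48 CPM with glucose (149 and 113 counts), 8.76 and 22.5 CPM with sucrose (176 and 366 counts), 1667 and 1821 CPM when glucose-deficient (31002 and 26066 counts) and 673 and 557 CPM when glucose-starved. With *scr1* disrupted (scr1::ura4+) they were 113 and 306 CPM on glucose and 42.0 and 202 CPM on sucrose. With *scr1* deleted they were 167 and 53.0 CPM on glucose and 118 and 31.6 CPM on sucrose. Every *scr1*- library was above every wild type library of glucose and sucrose and below every glucose-starved and glucose-deficient library. The groups rank, by mean, as wild type glucose, wild type sucrose, deletion sucrose, deletion glucose, scr1::ura4+ sucrose, scr1::ura4+ glucose, glucose-starved and glucose-deficient. The 4 groups of *scr1*- cells overlapped each other in this order, and every other step in it was without overlap. The replicates of *scr1*- cells were far apart: in the deletion, within 1 batch but from different strains, replicate 1 was 3.14-fold above replicate 2 in glucose and 3.72-fold in sucrose, ranks 20 and 27 of 6691 features by the size of this gap. SPNCRNA.1314, on the same strand, had between 12 and 313 counts per library.

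These values are those by which the genes were chosen. In the fit over all features with a batch term, *mug108*, SPAC29A4.22 and SPAC869.09 had the 3 largest rises in starved against glucose-grown wild type cells, at 11.52, 11.33 and 11.31 on the log2 scale, and *mug14* ranked 65 with 6.33. Just outside, SPAC186.02c, annotated as a hydroxyacid dehydrogenase, had 10.67 and *hry1* 10.66. In the glucose-deficient condition *mug14* had 8.38, ahead of the hexose transporter gene *ght3* with 6.88. It was second to SPMTR.01, whose glucose and glucose-deficient libraries were all at or under the floor. There *mug108* ranked 12 with 4.53, SPAC29A4.22 ranked 17 with 4.38 and SPAC869.09 ranked 20 with 4.33. Of all features 20.7% were called higher in starvation and 3.87% in deficiency, which is given as background only. Starved over deficient, the fitted log2 difference of *mug108* was 6.99 and that of *mug14* was -2.06. As ratios of mean CPM, *mug108* was 2392-fold higher in starvation and 26.8-fold higher in deficiency than in glucose, and *mug14* was 89.9-fold and 255-fold higher. Within single batches, *mug108* was 1973-fold higher in starvation (batch B) and 32.4-fold higher in deficiency (batch A), *mug14* 104-fold and 232-fold, and SPAC869.09 2232-fold (counting interval 1330 to 4084) and 14.7-fold (5.43 to 56.1). In unstranded batch A SPAC869.09 had 53 counts in deficiency and 4 in glucose, and SPNCRNA.1093, on the opposite strand, had 56 and 4. The contrasts of starvation and of deficiency use the same 2 glucose libraries. Genes near the floor in glucose have fold changes that rest on a few counts, 3 and 7 for SPAC29A4.22 and 4 and 14 for SPAC869.09.

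**Figure D3:**
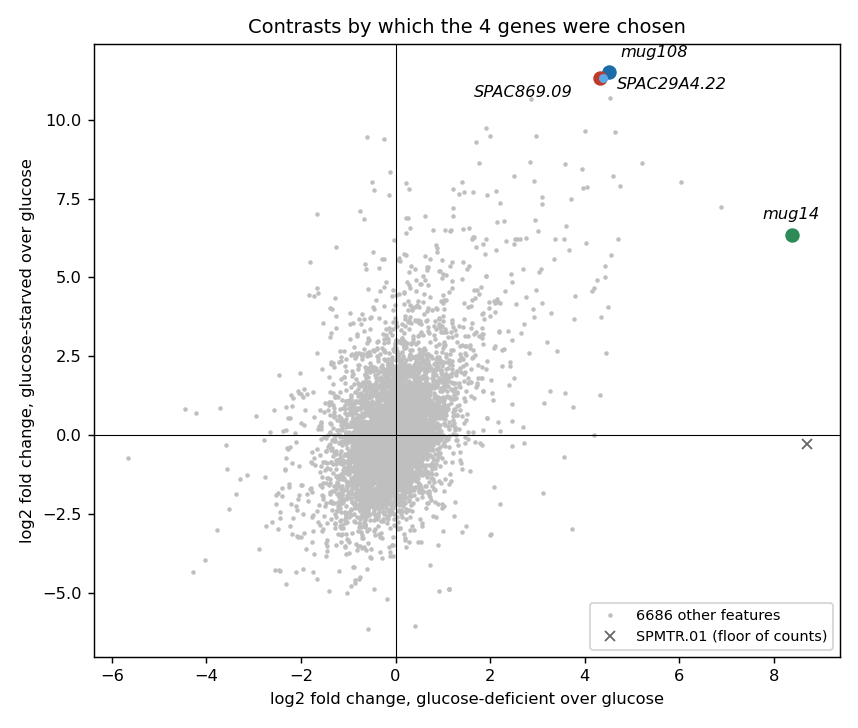
Log2 fold change in wild type cells of each of the 6691 tested features, glucose-deficient over glucose (x axis) and glucose-starved over glucose (y axis), with the 4 genes in colour. *mug108*, SPAC29A4.22 and SPAC869.09 lie at the top and *mug14* at the right, beside SPMTR.01, whose x value rests on counts at or under the floor.

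The loss of *scr1* was then examined. No library of *scr1*- cells was part of the choice, but the wild type glucose libraries were. In sucrose no library compared was part of the choice. The batch term and the spread were fitted over all 16 libraries, those of the choice among them. In sucrose 66 features were higher in *scr1*- than in wild type cells and 39 lower. These were 0.986% and 0.583% of 6691, called at an edgeR adjusted p under 0.05 and a log2 fold change past 1. *mug108* and SPAC29A4.22 were among those higher, *mug14* and SPAC869.09 were not. The log2 level of *mug108* rose by 4.21 (SE 0.37, edgeR adjusted p = 5.4e-05), the rise at rank 8, which is an 18.3-fold ratio of mean CPM. SPAC29A4.22 rose by 4.79 (SE 0.41, edgeR adjusted p = 5.4e-05), at rank 5. But its 2 wild type libraries in sucrose held 6 and 0 counts, and it passed the minimum count only through groups in which it was high. Its value without wild type sucrose replicate 1 was 8.27, which is no bound. The fitted difference of *mug14* was 2.82 (SE 0.67, edgeR adjusted p = 0.053), 6.30-fold by mean CPM, with all 4 libraries of *scr1*- cells above both of wild type. It passed the threshold under 8 of 25 alternatives, among them DESeq2 (adjusted p = 7.3e-05), scaling by library totals (edgeR adjusted p = 0.048) and 6 that each left out 1 library (edgeR adjusted p from 0.028 to 0.046), namely either glucose-deficient library, either glucose-starved library, or deletion replicate 2 in glucose or in sucrose. Over all alternatives its adjusted p ranged from 7.3e-05 to 0.54. For SPAC869.09 the fitted difference was -0.54 (SE 0.58, edgeR adjusted p = 0.69), with an approximate 95% interval from -1.69 to 0.60. Without the batch term its sign turned, to 0.90, and it passed the threshold under 0 of 25 alternatives, edgeR and DESeq2 among them.

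In glucose the comparison shares the 2 wild type libraries with the choice of the genes. The choice favours genes that are low in these libraries, which can raise the differences, so the adjusted p values of the 4 genes are no independent support. SPAC29A4.22, with 7 and 3 counts in them, passed the minimum count only through groups in which it was high. Of all features, 85 (1.27%) were higher in *scr1*- cells and 38 (0.568%) lower. The log2 level of *mug14* rose by 4.49 (SE 0.74, edgeR adjusted p = 0.0049), at rank 12, or 23.4-fold by mean CPM, but without wild type glucose replicate 2 it was 3.70 (edgeR adjusted p = 0.14). It also missed the threshold in stranded libraries alone (edgeR adjusted p = 0.13) and with the deletion as the only mutant (edgeR adjusted p = 0.091). *mug108* rose by 3.90 (SE 0.36, edgeR adjusted p = 6.8e-05), or 15.4-fold, with 3.17 without wild type glucose replicate 1 and 4.57 without replicate 2, and SPAC29A4.22 by 3.83 (SE 0.38, edgeR adjusted p = 0.00010), or 12.9-fold, the latter with an edgeR adjusted p = 0.068 without the batch term. For SPAC869.09 the value was 0.30 (SE 0.66, edgeR adjusted p = 0.88, interval -0.99 to 1.59). Starved wild type cells had 156-fold more *mug108* by mean CPM than *scr1*- cells in glucose, and 3.85-fold more *mug14*.

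**Figure D4:**
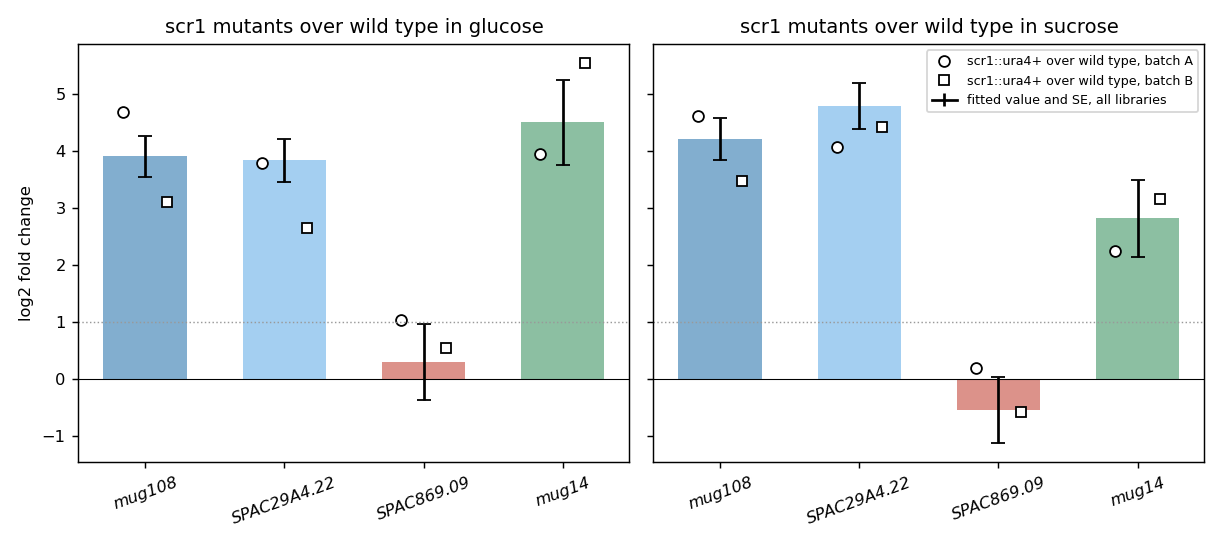
Log2 fold change of the 4 genes in *scr1*- over wild type cells in glucose (left) and sucrose (right), as bars with the SE of the fit over all libraries, and the differences of the scr1::ura4+ and wild type libraries of batch A (circles) and batch B (squares), from log2 CPM with a prior count of 2, as points. The bars of *mug108* and SPAC29A4.22 lie between 3.83 and 4.79 in both media, and that of SPAC869.09 within 1 SE of 0.

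Within batches the rise of *mug108* and *mug14* in scr1::ura4+ cells was seen in each, but its size went opposite ways. *mug108* was 27.4-fold higher in batch A and 8.98-fold in batch B in glucose, and 25.6-fold and 11.97-fold in sucrose. *mug14* was 15.7-fold and 47.3-fold higher in glucose, and 4.80-fold and 8.99-fold in sucrose. In batch A *rga3* was 7.70-fold and 9.78-fold higher in the same libraries and in batch B 2.64-fold and 2.54-fold. The part of *rga3* in the counts on *mug108*, and of *mug108* in those on *rga3*, was not tested. SPAC29A4.22 was 18.5-fold (counting interval 8.65 to 47.0) and 10.04-fold (3.05 to 52.1) higher in glucose, and 23.3-fold (10.4 to 64.7) higher in sucrose in batch A. SPAC869.09, which in batch A cannot be told apart from SPNCRNA.1093, differed by 2.74-fold (0.765 to 12.2) and 1.52-fold (0.707 to 3.34) in glucose. In sucrose it differed by 1.16-fold (0.523 to 2.60) and 0.646-fold (0.300 to 1.33). All deletion libraries are in batch C, where wild type was not sampled in these media, so no such value can be had for them.

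Between the 2 alleles, no gene passed the threshold, and 1.72% of all features did. The log2 difference of deletion over scr1::ura4+ cells, averaged over the media, was -0.18 for *mug108* (SE 0.39, edgeR adjusted p = 0.82, interval -0.96 to 0.59) and -0.51 for *mug14* (SE 0.85, edgeR adjusted p = 0.76). SPAC29A4.22 had -0.39 (SE 0.29, edgeR adjusted p = 0.46) and SPAC869.09 -1.32 (SE 0.52, edgeR adjusted p = 0.17). For SPAC869.09 the CPM were higher in the deletion libraries and the fitted difference lower, in a fit that sets the level of batch C by the wild type glucose-deficient and glucose-starved libraries, and without a batch term the sign turned, to 1.60. Here allele and batch cannot be told apart.

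None of the 4 genes passed the threshold between sucrose and glucose. In wild type cells 1 of 6691 features (0.0149%) was called between the media by edgeR, with 128 at an unadjusted p under 0.05, and in *scr1*- cells 0 were called by edgeR and 1 by DESeq2, with 108 at an unadjusted p under 0.05. *mug108* differed by -0.18 on the log2 scale in wild type cells (SE 0.41, edgeR adjusted p = 1.0) and 0.13 in *scr1*- cells (SE 0.22, edgeR adjusted p = 1.0, interval -0.30 to 0.56). SPAC29A4.22 had -0.69 (SE 0.68) and 0.27 (SE 0.19), and SPAC869.09 had 1.16 (SE 0.71) and 0.32 (SE 0.43), with all edgeR adjusted p = 1.0.

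*mug14* was higher in sucrose than in glucose in both pairs of wild type libraries and lower in all 4 pairs of *scr1*- libraries. Sucrose over glucose, wild type cells had ratios of 1.22 (batch A) and 3.47 (batch B), scr1::ura4+ cells 0.372 (batch A) and 0.660 (batch B), and the deletion 0.706 and 0.597 (batch C). The fitted log2 change was 0.93 in wild type cells (SE 0.70, edgeR adjusted p = 1.0) and -0.75 in *scr1*- cells (SE 0.46, edgeR adjusted p = 1.0). With the libraries of *scr1*- cells paired by strain and number, since each preculture was split between the media, 25 features were called between the media in place of 0, and *mug14* had -0.81 (SE 0.13, edgeR adjusted p = 0.024), under the fold threshold. The difference between the 2, the interaction, was -1.68 (SE 0.83, edgeR adjusted p = 1.0), so it was not called. With 1 library left out it was -2.63 (without wild type glucose replicate 1) to -0.94 (without replicate 2), and the change in wild type cells 1.86 and 0.17. The wild type glucose libraries in both values are those by which the genes were chosen. Over all 6691 features edgeR called 1 and DESeq2 2, with 40 at an unadjusted p under 0.05. For the other genes the interaction was 0.31 (SE 0.46), 0.96 (SE 0.71) and -0.84 (SE 0.83), with edgeR adjusted p = 1.0 each.

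**Figure D5:**
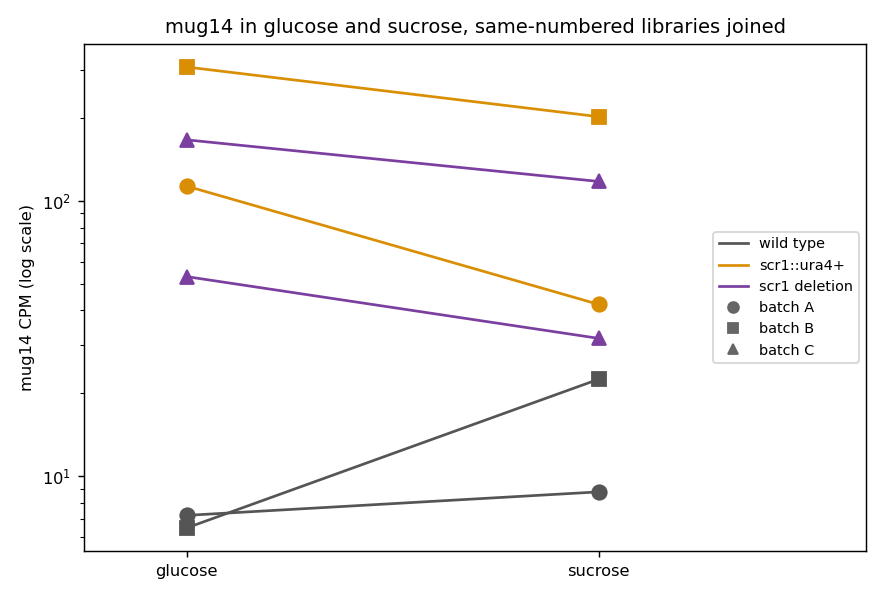
CPM of *mug14* (log axis) in glucose and in sucrose, with libraries of the same genotype and replicate number joined, colour for genotype and symbol for batch. The lines of wild type cells rise, 1.22-fold and 3.47-fold, and those of *scr1*- cells fall, to 0.372 to 0.706 of the level in glucose.

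Of 89 other genes with a mug symbol, 86 were tested, and in *scr1*- cells 2 were higher in sucrose (2.33%, beside 0.986% of all features) and the same number in glucose (beside 1.27%), with none lower. They were *mug114*, which rose by 3.77 in sucrose (SE 0.77, edgeR adjusted p = 0.026) and by 4.72 in glucose (SE 0.84, edgeR adjusted p = 0.0095), and *mug146*, with 2.78 (SE 0.50, edgeR adjusted p = 0.011) and 2.61 (SE 0.50, edgeR adjusted p = 0.015). In the stranded libraries alone none of these passed the threshold, with edgeR adjusted p between 0.21 and 0.36, and each call was also lost without wild type replicate 1 of its medium. The medians of the 86 were -0.0044 in sucrose and -0.013 in glucose, against -0.014 and -0.0075 over all features. Among 88 tested mug genes, *mug108* and *mug14* ranked 1 and 3 in sucrose and 3 and 2 in glucose. In starvation 23 of the other 86 were higher (26.7%) and 12 lower (14.0%), led by *mug147* with 6.23 and *mug24* with 5.69, and by *mug103* with -3.38 and *mug68* with -2.67, beside 1387 and 1337 of all 6691 features. In deficiency 6 were higher (6.98%), led by *mug114* with 4.49, and 1 lower, *mug73* with -1.08, beside 259 and 248 of all features. With 1 library left out, 1 to 12 of the 86 were called in deficiency, and the calls of *mug114* (edgeR adjusted p = 0.11 without wild type glucose replicate 1), *mug73* (edgeR adjusted p = 0.19 without wild type glucose replicate 2) and, in starvation, *mug103* (without wild type glucose replicate 1 or starved replicate 2) and *mug68* (without wild type glucose replicate 2) were lost. The median of the 86 was -0.0037 in starvation and 0.088 in deficiency.

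The known Scr1 and Rst2 targets *inv1* (invertase), *ght5* (hexose transport), *gld1* (glycerol dehydrogenase), *fbp1* (fructose-1,6-bisphosphatase) and *ste11* (the regulator of sexual development) mostly rose in both comparisons. In *scr1*- cells 3 of 5 were higher in sucrose (beside 0.986% of all features) and 4 of 5 in glucose (beside 1.27%), led by *inv1* with 7.28 and 7.45 and *gld1* with 4.21 and 5.21. In starvation 4 of 5 were higher (beside 20.7%), led by *gld1* with 8.64 and *fbp1* with 7.83, and in deficiency 5 of 5 (beside 3.87%), led by *gld1* with 5.22 and *ght5* with 4.34. Without wild type sucrose replicate 2 the call of *inv1* in sucrose was lost (6.70). The median of the 5 was 2.91 in sucrose and 4.80 in glucose. The 10 stress response genes differed: in *scr1*- cells 0 of 10 were called by edgeR in either medium, with 2 at an unadjusted p under 0.05 and 1 called by DESeq2 in each, and with medians of 0.22 and 0.12, while in starvation 10 of 10 were higher (beside 20.7% of all features), led by the heat shock genes *hsp9* with 6.23 and *hsp16* with 6.21. In deficiency 2 were higher (beside 3.87%), *hsp9* with 2.57 and *gpx1* with 1.78. There 1 was lower (beside 248 of all 6691 features), *pyp2*, a phosphatase of the stress kinase, with -1.26. The calls of *gpx1* and *pyp2* were lost without wild type glucose replicate 1 and replicate 2. Of 9 regulators of the pathway, *scr1* and *cgs2*, which encodes the cyclic AMP phosphodiesterase, were higher in *scr1*- cells in both media, *cgs2* by 1.22 and 1.21. Of all features 0.986% were higher in sucrose and 1.27% in glucose. The *scr1* feature extends beyond the coding sequence, and which part of it these counts cover was not tested. Its rise in these cells is therefore not read as one of intact *scr1*. In starvation 6 of 9 were higher, beside the same 20.7%, led by *cgs1* and *pka1* (3.51 for *pka1*), which encode the subunits of protein kinase A. In deficiency 1 was higher, *scr1*, beside the same 3.87%. With library totals *cgs2* in glucose was 0.99, under the fold threshold.

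Markers of mating type and sexual development were read beside these values, as the strains differ in mating type. As background, 0.986% of all 6691 features were called higher in *scr1*- cells in sucrose and 1.27% in glucose. In starvation 1387 of all features were higher and 1337 lower, and in deficiency 259 and 248. Of 14 genes of meiosis and sporulation, which include *rec8*, *mei4* and the spore gene *isp3*, 0 were called by edgeR in *scr1*- cells in either medium (1 by DESeq2 in glucose, and 1 in sucrose and 4 in glucose at an unadjusted p under 0.05), 5 were higher and 2 lower in starvation, led by *isp3* with 3.39 and *rec10* with -1.19, and 1 was higher in deficiency, *isp3*, a call lost without any 1 of 3 libraries (edgeR adjusted p up to 0.11). Their summed level was 257 to 318 CPM in batch A and 377 CPM at most in the others. Of 5 conjugation genes, 1 was higher in *scr1*- cells in sucrose and 2 in glucose, *mei2* (2.31 and 3.11) and *ste11* (1.57 in glucose), and in deficiency *mei2* and *ste11* were higher (2.72 and 2.17) and *fus1* lower (-1.33). Their summed level was 70.7 and 94.9 CPM in wild type cells in glucose and 170 to 358.6 CPM in *scr1*- cells. In starvation *mei3* was higher (2.28, but 1.28 with edgeR adjusted p = 0.15 without wild type glucose replicate 1) and *ste6* lower (-2.56). Of 6 genes of M cells (*mfm1* to *mfm3* and *mam1* to *mam3*), 0 were called in *scr1*- cells by edgeR or DESeq2 in either medium (2 in sucrose and 0 in glucose at an unadjusted p under 0.05), and 1, *mam2*, was lower in starvation (-2.18, but -0.67 with edgeR adjusted p = 0.39 without starved replicate 2, and not called without any 1 of 13 libraries). Their summed level was 107 to 170 CPM in wild type cells other than the glucose-deficient libraries (550 and 798 CPM), 404 and 455 CPM in scr1::ura4+ replicate 1, 110 and 122 CPM in replicate 2 and 515 to 626 CPM in the deletion. Of 4 genes of P cells, *map1* was higher in *scr1*- cells in glucose (1.15, edgeR adjusted p = 0.030, not held when any 1 of 8 libraries was left out) and in deficiency (1.58) and lower in starvation (-1.16, but -0.74, under the fold threshold, without starved replicate 2). The summed level of these 4 was 163 to 208 CPM in the unstranded batch A and 38.1 to 99.2 CPM in the stranded batches. The part of mating type in the values of the 4 genes was not tested.

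Of the 18 nearest protein-coding genes that do not overlap the 4 genes, 0 were called in *scr1*- cells in either medium by edgeR, with 6 in sucrose and 5 in glucose at an unadjusted p under 0.05 and with 2 and 1 called by DESeq2, and with log2 fold changes between -1.76 and 1.42 in sucrose and between -0.96 and 1.11 in glucose. In starvation 5 of 18 were higher and 4 lower, beside 1387 and 1337 of all 6691 features, and none of the 9 lay near *mug108* and SPAC29A4.22. Next to SPAC869.09 on one side, *pcm2*, 469 bases away, which encodes a protein repair methyltransferase, had 7.64, *mel1*, an alpha-galactosidase gene 2319 bases away, had 6.26, and *hry1*, 5111 bases away, had 10.66. On the other side *cat1*, 5052 bases away, which encodes an amino acid transporter, had 1.17 and *atd2*, an aldehyde dehydrogenase gene, had -1.65. In deficiency *pcm2* and *mel1* were higher, by 1.33 and 2.77, beside 259 of all 6691 features. Of the 6 around *mug14*, 3 were lower in starvation, *abc3*, 1198 bases away, at -1.10, *pfl7* at -2.96 and *aat1*, an amino acid transporter gene, at -3.40, and *pho841*, a phosphate transporter gene, was higher at 1.23. Left out singly, libraries ended some of these calls: that of *abc3* in starvation without replicate 2 of wild type glucose, scr1::ura4+ glucose or starved cells, that of *cat1* without wild type glucose replicate 1 or starved replicate 2, and those of *pcm2* (1.02 and edgeR adjusted p = 0.25 without wild type glucose replicate 1) and *mel1* (edgeR adjusted p = 0.087 without the same library) in deficiency.

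Over the 16 libraries the 4 genes fell into different company. The levels of *mug108* and SPAC29A4.22, which share reads, correlated with r = 0.994 (Pearson, log2 CPM, 16 libraries that share batches and controls), *mug108* and SPAC869.09 with 0.866, *mug108* and *mug14* with 0.699, and SPAC869.09 and *mug14* with 0.607. The features most like *mug108* were *rbd3* (0.986), a rhomboid peptidase gene, SPCC191.01 (0.974), *deb1* (0.971), SPNCRNA.603 (0.966) and *mdh1* (0.964), a malate dehydrogenase gene. For SPAC29A4.22 they were *rbd3* (0.971), *deb1* (0.968), *wwm3* (0.962), SPCC191.01 and SPNCRNA.603. *rbd3* levels were 5.46 and 6.65 CPM with glucose, 38.9 and 37.4 CPM in deficiency, 399 and 449 CPM in starvation and 26.2 to 46.8 CPM in *scr1*- cells. For SPAC869.09 they were *gpx1* (0.991), a glutathione peroxidase gene, *inh1* (0.990), an inhibitor of the mitochondrial ATPase, *tpp1* (0.989), a trehalose phosphatase gene, *mvp1* (0.988) and *nhp6* (0.986). *gpx1* levels were 117 and 154 CPM with glucose, 274 and 918 CPM in deficiency, 3012 and 4945 CPM in starvation and 164 to 235 CPM in *scr1*- cells. For *mug14* they were *ght3* (0.927), *cbs2* (0.903), *tal1* (0.901), a transaldolase gene, *idn1* (0.889), a gluconokinase gene, and *atp16* (0.885). *ght3* levels were 5.36 and 4.42 CPM with glucose, 507 and 677 CPM in deficiency, 759 and 787 CPM in starvation and 91.1 to 118 CPM in *scr1*- cells. Which genes were named depended on the points used: over the 8 group means, 1 of 5 stayed for SPAC869.09 and 0 of 5 for each of the others, and over the 11 stranded libraries 2, 2, 1 and 1 of 5 stayed, in the order *mug108*, SPAC29A4.22, SPAC869.09 and *mug14*.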

How the data were processed

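RNA-seq libraries from ribosome-depleted RNA of 16 cultures were used. Per the paper's methods, the authors trimmed reads with Cutadapt 1.9.1, aligned them with TopHat2 2.1.1 to ASM294v2 and counted them with featureCounts 1.5.2, with overlapping and multi-mapping reads counted on every feature, and with strand for batches B and C. The deposited values are these raw counts of 7019 features, with no normalization. Precultures were split between the media, with 2 biological replicates for each strain and condition, so same-numbered libraries of a genotype were taken as paired between sucrose and glucose. Deviations from group means correlated at 0.969 in wild type, 0.972 in scr1::ura4+ and 0.334 in the deletion. In wild type and scr1::ura4+ the number is also the batch, so these values cannot show a shared culture. Across genotypes the number is shared without a shared culture, and wild type and scr1::ura4+ in glucose still correlated at 0.933. Counts were tested in R 4.3.3 with edgeR 4.0.16: TMM, a minimum count of 10 (filterByExpr, 6691 features left, the 4 genes among them, SPAC29A4.22 and SPAC869.09 through the groups in which they are high), 6 groups with both *scr1* alleles pooled, a batch term, 8 residual degrees of freedom, and Benjamini-Hochberg adjustment over all features. Features were called at an adjusted p under 0.05 and a log2 fold change past 1. Alleles were compared in a fit of 8 groups. Each SE was taken from the fold change and the F statistic. Log2 CPM have a prior count of 2. Nothing beyond counting error is covered by exact intervals and floors. The test was checked on counts simulated with a common dispersion, no batch effect and no change in low-count features, so that check does not cover these. Alternatives were DESeq2 1.42.0, its size factors, library totals, a fit with every feature, a fit lacking batch, the replicate block, stranded libraries alone, each allele alone, wild type libraries alone and each library left out. Promoter words were searched in RefSeq windows of ASM294v3 (6845 of 7019 features matched, and 99.3% of these share a start or end).

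The members, lists and tests were chosen with earlier results of these data known. Named genes are the 4 genes, the next riser in each medium, overlapping features, the 3 nearest coding genes on each side, the 5 features with the highest correlation, and of each list the 2 largest changes in each direction among those called.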

Additional observations from a re-analysis of the deposited data

Results flagged for a closer look

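SPAC29A4.22 in *scr1*- cells in sucrose had 1 library apart from the other 3. scr1::ura4+ replicate 1, the only unstranded library of the group, had 6.96 CPM and the others 2.53, 2.94 and 3.20 CPM. The gap between the highest library and the next was 0.849 of the range of the group, past Dixon's limit for 4 values, which chance passes in about 1 of 20 groups.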

How the results depend on the processing

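The calls of *mug108* held under 25 of 25 alternatives in sucrose and in glucose, and those of SPAC29A4.22 under 25 of 25 in sucrose and 24 of 25 in glucose. With 2 libraries a group, 1 library could move a value. The number of features called in *scr1*- cells in sucrose, 105, was 184 with DESeq2, 46 without a batch term, 31 in stranded libraries alone and 42 to 190 with 1 library left out. In glucose 123 became 61 without a batch term, 61 in stranded libraries alone and 67 to 198 with 1 library left out. Between sucrose and glucose 1 feature was called in wild type cells, 3 with DESeq2, 0 in stranded libraries alone, 0 in wild type libraries alone and 0 to 2 with 1 library left out, and in *scr1*- cells DESeq2 called 1. The interaction had 1 call, 2 with DESeq2, 0 in stranded libraries alone, 0 with scr1::ura4+ alone, 0 with the deletion alone and 0 to 2 with 1 library left out. Between the alleles 115 became 270 with DESeq2, 2 without a batch term and 29 to 1188 with 1 library left out.

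For *mug14* in sucrose the log2 fold change of 2.82 passed the threshold with DESeq2 (2.82) and library totals (2.63), with 2.47 to 3.10 when 1 library was left out. In glucose its call was lost in stranded libraries alone (5.35) and with the deletion alone (3.97), with 3.70 to 5.42 when 1 library was left out. SPAC29A4.22 in glucose lost its call without a batch term (3.63, edgeR adjusted p = 0.068). SPAC869.09 changed sign in sucrose without a batch term (0.90), in glucose with the deletion alone (-0.62) and between alleles without a batch term (1.60). *mug108* between alleles changed sign with library totals (0.091). With 1 library left out, the log2 difference between alleles was -0.42 to 0.11 for *mug108*, -0.87 to 0.052 for SPAC29A4.22 and -2.30 to -0.55 for SPAC869.09, the interaction was -0.40 to 1.04 for *mug108* and -2.63 to -0.94 for *mug14*, and the sucrose over glucose values of *mug108* were -0.92 to 0.52 in wild type and -0.060 to 0.29 in *scr1*- cells. The cause of these shifts was not tested.

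Deviations of same-numbered libraries correlated between -0.019 and 0.972 over the 7 pairs of groups compared, and the number is also the batch in most groups. With a replicate block replacing batch, 54 features were called in sucrose, 79 in glucose, 2 between the media in wild type cells and 35 between alleles, and SPAC869.09 changed sign in sucrose (1.12) and between alleles (1.78). With the replicate block within each allele, 25 features were called between the media in *scr1*- cells, and it changed no other call of the 4 genes between the media.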
